A study of Mus musculus with 10 samples.

Results

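The endoplasmic reticulum (ER) is where a cell makes, folds and checks the proteins that it secretes or places on its surface, and antibody production in B lineage cells depends on it. The expression of 37 mouse genes of ER protein entry, folding and quality control was compared between splenic B cells of mice with liver fibrosis and splenic B cells of control mice. The genes were taken by symbol, as known parts of this apparatus, from a gene count table of 54532 genes; no threshold on their values was used, but the group was proposed with earlier results of these data known. All 37 were found in the table, and all 37 passed the filter on low counts that left 14283 genes for testing. RNA sequencing had been done on 5 fibrosis libraries and 5 control libraries. The fibrosis group came from mice given carbon tetrachloride, a solvent that injures hepatocytes, by intraperitoneal injection over 4 weeks. The control group was labelled as wildtype. The sources used here give neither the strain and age of the mice, nor a vehicle for the controls, nor the way the B cells were isolated. The labels name no separate animal for each library, so a p-value reflects how far these libraries differ from each other, and some of that spread may be technical.

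Proteins destined for secretion enter the ER through the Sec61 channel, assisted by the translocon-associated protein complex, which the Ssr genes encode. Signal peptidase then removes the signal peptide. Inside, the Hsp70 chaperone BiP (Hspa5) works with J-domain cochaperones such as Dnajb11 and Dnajc3, the lectins calnexin and calreticulin hold glycoproteins, and protein disulfide isomerases form disulfide bonds. Proteins that do not fold are returned to the cytosol and degraded, with the derlins among the membrane proteins of that route. When unfolded protein builds up, the unfolded protein response, sensed by ATF6, IRE1 (Ern1) and PERK, raises transcription of many of these genes, and plasma cells use IRE1 and its target Xbp1 to enlarge the ER for antibody secretion.

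A sequence that ties several of these genes together is the ER stress element, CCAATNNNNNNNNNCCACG, the promoter motif through which ATF6 is known to act. RefSeq promoters of build GRCm38.p6 were matched by symbol for 28 of the 37 genes, and the 250 bases before each start were searched on both strands. The element was found before 8 of the 28 genes (28.6%), against 37 of all 32841 promoters of the same length (0.113%). The elements are shown because they mark the members that share this motif. Of these 8 members, 1 was called higher in fibrosis (12.5%, against 18.6% of all tested genes). Another 1 was called lower (12.5%, against 17.2%). Capitals mark the fixed ends of the element, each read 5′ to 3′ in the direction of the motif.
Hspa5 (chr2:34772025-34772043): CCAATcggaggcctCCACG
Hsp90b1 (chr10:86705638-86705656): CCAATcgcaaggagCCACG
Hsp90b1 (chr10:86705533-86705551): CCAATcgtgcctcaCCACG
Dnajc3 (chr14:118937827-118937845): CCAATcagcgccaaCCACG
Calr (chr8:84847075-84847093): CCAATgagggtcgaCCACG
Canx (chr11:50325800-50325818): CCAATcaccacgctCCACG
Pdia6 (chr12:17266491-17266509): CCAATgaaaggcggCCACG
Creld2 (chr15:88819520-88819538): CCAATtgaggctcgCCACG
Derl3 (chr10:75893242-75893260): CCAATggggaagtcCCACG
A shorter element, TGACGTGG, known as the unfolded protein response element, was found before 1 of the 28 genes, Txndc5 (3.57%), against 0.563% of all promoters. Txndc5 had it at 1 of its 3 starts. In both searches a member was counted if any of its starts had the motif, whereas all promoters were counted singly, so the shares differ in unit.

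The promoters of Dnajc3, called higher in fibrosis, and Derl3, called lower, are given in full beside that of Hspa5, the gene most often used to read out this response. The calls of Dnajc3 and Derl3 were each lost with some single libraries left out. Each is the 250 bases before the start, on the strand of the gene, with the element in capitals.
Hspa5 (chr2:34771840-34772089, plus strand): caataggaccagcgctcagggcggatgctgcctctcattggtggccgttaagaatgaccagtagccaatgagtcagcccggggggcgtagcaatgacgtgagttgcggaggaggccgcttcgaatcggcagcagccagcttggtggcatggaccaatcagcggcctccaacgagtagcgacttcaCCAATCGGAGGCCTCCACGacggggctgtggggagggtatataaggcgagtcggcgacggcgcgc
Dnajc3 (chr14:118937682-118937931, plus strand): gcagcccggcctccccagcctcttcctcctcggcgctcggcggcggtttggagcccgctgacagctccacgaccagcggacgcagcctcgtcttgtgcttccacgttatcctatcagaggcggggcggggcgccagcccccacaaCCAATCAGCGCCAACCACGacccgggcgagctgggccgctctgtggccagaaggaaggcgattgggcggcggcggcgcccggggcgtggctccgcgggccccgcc
Derl3 (chr10:75893148-75893397, plus strand): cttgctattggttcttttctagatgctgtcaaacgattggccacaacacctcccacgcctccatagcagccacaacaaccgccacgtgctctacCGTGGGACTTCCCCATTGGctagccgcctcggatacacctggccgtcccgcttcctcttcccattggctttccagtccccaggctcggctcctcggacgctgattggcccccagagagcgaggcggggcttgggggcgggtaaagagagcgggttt
In Dnajc3 and Hspa5 the element lies on the strand of the gene, and in Derl3 on the opposite strand, ending 86, 46 and 137 bases before the start in that order. Such a match describes the letters and does not show that a factor binds there.

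Library totals ranged from 13439100 to 17069393 counts in fibrosis and from 15912080 to 17954551 in control. Levels are given as TMM-scaled CPM, the counts per 1e6 of the library, and fold changes are log2, fibrosis minus control, ± standard error. Calls are from edgeR's quasi-likelihood test with Benjamini-Hochberg adjustment over all 14283 genes, at an adjusted p under 0.05. The cells expressed B cell markers throughout, with Cd79a, a chain of the B cell receptor, at 1995 ± 409 CPM in fibrosis and 1623 ± 46.7 CPM in control. Of 11 B cell markers, 4 were called higher in fibrosis (Ms4a1, Cd22, Ebf1 and Bank1), and the summed level of the 11 was 7553 to 10635 CPM in fibrosis and 7099 to 8121 CPM in control. All 11 had a log2 fold change above 0, with a median of 0.27. At an unadjusted p under 0.05 edgeR gave 9 as higher, DESeq2 called 4 higher, and voom called 10 higher. Markers of other cells were present and moved with the groups. All 22 proliferation genes were called lower (summed level 1522 to 2351 CPM in fibrosis and 4216 to 5465 CPM in control), as were 14 of 19 erythroid genes (1234 to 8485 CPM in fibrosis and 5434 to 8475 CPM in control), and all 9 tested platelet genes were called higher (326 to 1343 CPM in fibrosis and 197 to 242 CPM in control). Of 7 dendritic cell genes 5 were called higher (283 to 351 CPM in fibrosis and 169 to 185 CPM in control), as were 4 of 8 natural killer cell genes (63.0 to 132 CPM in fibrosis and 57.5 to 97.2 CPM in control). Of 6 tested genes of pancreatic acinar cells 5 were called lower (11.1 to 58.8 CPM in fibrosis and 47.1 to 111 CPM in control), and Cela3b and Amy2a5 had no count in fibrosis. Mitochondrially encoded genes took 1.05 to 1.83% of counts in fibrosis and 0.855 to 1.11% of counts in control. Of the plasma cell markers, a list that also holds Jchain and Sdc1, 1 of 6 tested was called higher, Slamf7, and the summed level was 457 to 628 CPM in fibrosis and 471 to 603 CPM in control; Tnfrsf17, which marks mature plasma cells, was too low to test. In bulk RNA, fewer cells of a type and less RNA per cell cannot be told apart, and the part of these markers in the results was not tested.

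Within the fibrosis group, libraries 4 and 5 differed from 1 to 3 in their overall composition. Ribosomal protein genes took 9.68, 9.20, 9.01, 12.8 and 12.5% of counts in fibrosis libraries 1 to 5, against 8.02, 7.55, 7.06, 8.03 and 7.23% of counts in control libraries 1 to 5. The summed platelet markers were 326, 412, 778, 1290.5 and 1343 CPM in fibrosis libraries 1 to 5, against 216, 211, 242, 233 and 197 CPM in control libraries 1 to 5. The summed macrophage markers, of which 1 of 13 was called higher by edgeR, were 3018, 2375, 1853, 5651 and 6383 CPM in fibrosis libraries 1 to 5, against 5078, 5137, 3146, 5167 and 3566 CPM in control libraries 1 to 5. DESeq2 also called 1 macrophage marker higher, whereas voom called 0 higher and 6 lower. The summed neutrophil markers, of which none of 11 was called by edgeR, were 1465, 673, 385, 3641 and 4568 CPM in fibrosis libraries 1 to 5, against 1153, 1719, 610.2, 1327 and 780.4 CPM in control libraries 1 to 5. At an unadjusted p under 0.05 edgeR gave 2 of these 11 as higher, DESeq2 called 0, and voom called 1 lower. The summed erythroid markers were 2268, 1234, 2627, 8485 and 3541 CPM in fibrosis libraries 1 to 5, against 6522, 6896, 5434, 6283 and 8475 CPM in control libraries 1 to 5, with fibrosis library 4 the highest. Results that rest on these libraries are given with and without them.

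The ER genes as a group held nearly the same TMM-scaled level in both groups. Their summed level was 5953, 6176, 4885, 5387 and 5542 CPM in fibrosis libraries 1 to 5, against 5968, 5632, 5522, 5461 and 5399.5 CPM in control libraries 1 to 5, which is 5588 ± 504 CPM in fibrosis and 5596 ± 225 CPM in control (n = 5 each, SD). As a share of raw counts they made up 0.537 ± 0.0400% in fibrosis and 0.580 ± 0.0188% in control, and the log2 ratio of the summed levels, -0.0021 with TMM, was -0.11 with scaling by library size. The groups overlapped, and fibrosis libraries 2 and 3 were the highest and lowest of all 10. Single genes moved in both directions by small amounts. In fibrosis, 4 of the 37 genes were called higher (10.8%), Mzb1, Ssr4, Dnajc3 and Ssr3, where 18.6% of all tested genes were called higher. Another 3 were called lower (8.11%), Derl3, Dnajb11 and Ssr1, where 17.2% of all tested genes were called lower. Without fibrosis libraries 4 and 5, 18.4% of all 14607 tested genes were called higher and 18.8% lower. Of the 37 ER genes, 4 were called higher and 1 lower in that fit, but not all the same genes. Those higher were then Mzb1, Dnajc3, Pdia4 and Atf6, and the 1 lower was Ssr1. Ssr4, Ssr3, Derl3 and Dnajb11 lost their calls. With all 10 libraries, the remaining 30 did not pass the test. The median log2 fold change of the 37 was -0.018, beside 0.045 for all tested genes, and the 37 values ran from -0.49 to 0.58. All 5 libraries of fibrosis lay above all 5 of control for 2 members, Mzb1 and Ssr3 (5.41%, where 11.4% of tested genes did so), and below them for Dnajb11 and Ssr1 (5.41%, where 14.0% did so). By these shares, called changes were not more frequent among the ER genes than over the whole table.

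**Figure D1:**
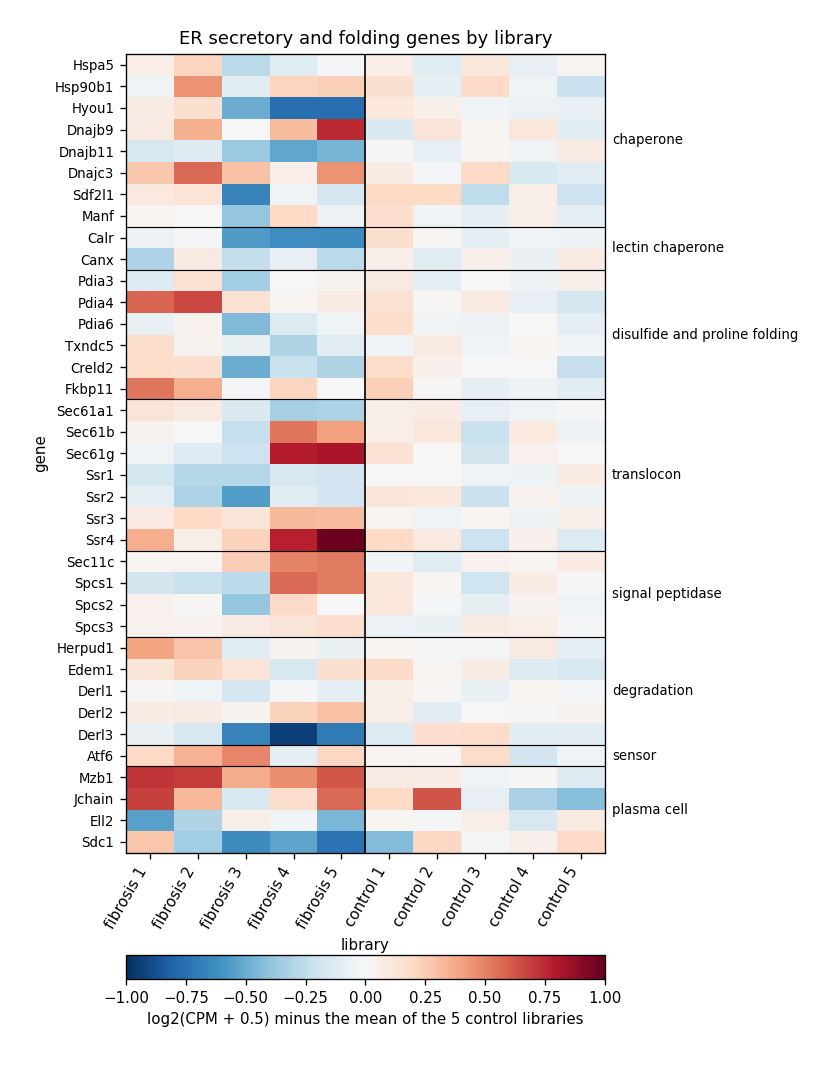
Heat map of the level of each of the 37 ER genes (down the page, by role) in each of the 10 libraries, fibrosis 1 to 5 at the left and control 1 to 5 at the right, as log2 of CPM plus 0.5 minus its mean over the control libraries, from blue (lower) to red (higher). Rows differ in direction within most roles, and Mzb1 is the row with fibrosis above control in every library by the most.

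The precision of these comparisons was high for most members. Standard errors ran from 0.071 to 0.21, with a median of 0.10. For 26 of the 37 genes the 95% interval of the fold change lay within 1.5-fold in either direction, and 22 of those 26 were not called. The 11 genes whose interval reached past 1.5-fold were Mzb1, Ssr4, Derl3, Calr, Hyou1, Pdia4, Dnajb9, Fkbp11, Sec61g, Jchain and Sdc1. TMM scaling factors were lower in fibrosis (0.940 to 1.03) than in control (1.02 to 1.06). Scaling by library size alone moved the median of all tested genes from 0.045 to -0.062, and the calls among the members then numbered 1 higher and 6 lower instead of 4 and 3. The 1 gene still called higher was Mzb1.

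**Figure D2:**
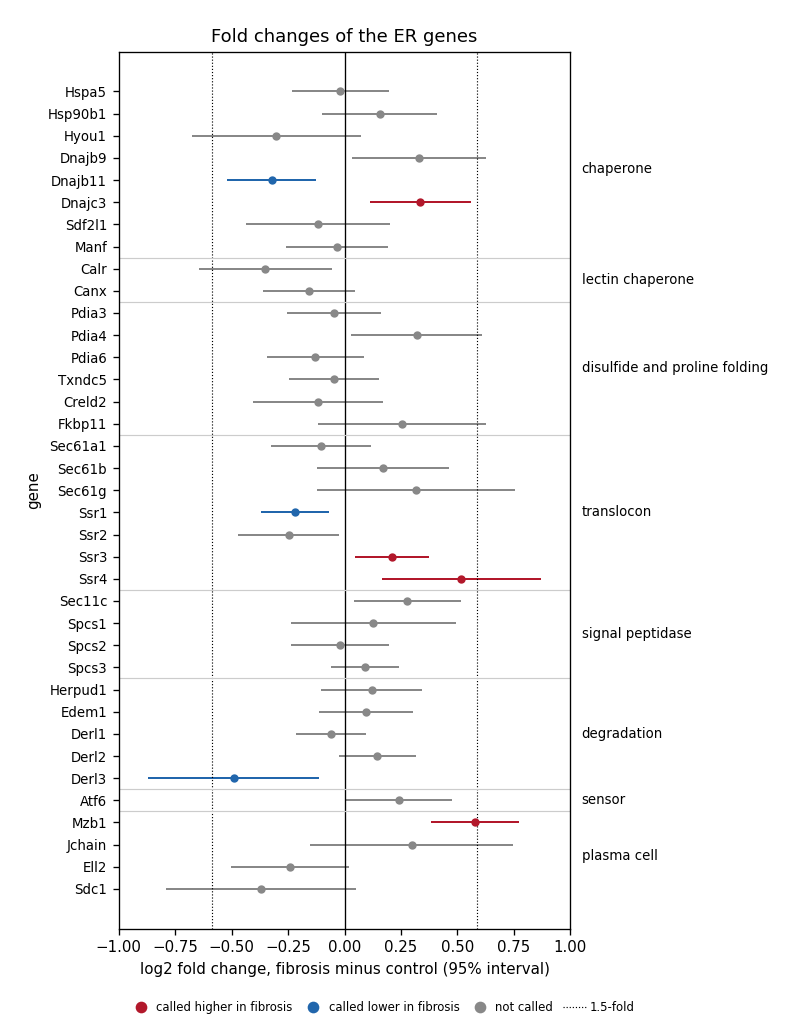
Log2 fold change of each ER gene, fibrosis minus control, with its 95% interval, grouped by role. Points are coloured by call and dotted lines mark 1.5-fold; 4 genes are called higher, 3 lower, and most intervals stay between the dotted lines.

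Of 7 translocon genes, 2 were called higher (28.6%, against 18.6% of all tested genes) and 1 lower (14.3%, against 17.2%). The translocon-associated protein complex has 4 subunits, of which Ssr3 and Ssr4 were called higher in fibrosis and Ssr1 lower. The gamma subunit gene Ssr3 (chr3:65379655-65392623, minus strand) had 120.2, 130.2, 123, 142 and 140.4 CPM in fibrosis libraries 1 to 5, against 116, 110.1, 115, 109 and 117 CPM in control libraries 1 to 5. The lowest fibrosis library stood just above the highest control library, and the log2 fold change was 0.21 ± 0.076, adjusted p = 0.0455. The delta subunit gene Ssr4 (chrX:73787028-73790830, plus strand) had 129, 105, 118, 173 and 199 CPM in fibrosis libraries 1 to 5, against 116, 107, 87.3, 105 and 91.7 CPM in control libraries 1 to 5. Fibrosis libraries 4 and 5 were well above the rest, the groups overlapped, and the log2 fold change was 0.52 ± 0.16, adjusted p = 0.0246. The alpha subunit gene Ssr1 (chr13:37966605-37994217, minus strand) had 138, 128, 128, 139 and 136 CPM in fibrosis libraries 1 to 5, against 156, 156, 152, 150.1 and 165 CPM in control libraries 1 to 5, with every fibrosis library below every control library, and a log2 fold change of -0.22 ± 0.071, adjusted p = 0.0276. The beta subunit gene Ssr2 was not called, at 85.8 to 119 CPM in fibrosis and 109 to 138 CPM in control. Its log2 fold change was -0.25 ± 0.10, adjusted p = 0.0799. Ssr2 was called without control library 3 (log2 fold change -0.30, adjusted p = 0.0455). It was also called with voom (-0.32, adjusted p = 0.0144), library size scaling (-0.36, adjusted p = 0.00957) and the replicate block (-0.25, adjusted p = 0.0338).

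These translocon calls depended on single libraries, and that of Ssr3 was lost in 16 of 23 alternatives, RLE scaling (adjusted p = 0.0604), no filter (0.415) and the replicate block (0.0723) among them. Ssr4 lost its call in 9 of the 23, among them voom (log2 fold change 0.27, adjusted p = 0.116) and library size scaling (0.41, adjusted p = 0.0531). Without fibrosis libraries 4 and 5, the log2 fold change of Ssr4 was 0.22, adjusted p = 0.115, that of Ssr3 was 0.14, adjusted p = 0.111, and that of Ssr1 was -0.24, adjusted p = 0.0181. With single libraries left out, Ssr4 lost its call without fibrosis library 4 or 5 or control library 3 or 5 (log2 fold changes 0.38 to 0.48, adjusted p = 0.0556 to 0.0640). Ssr1 lost it without fibrosis library 2 or control library 1, 2 or 5 (log2 fold changes -0.22 to -0.20, adjusted p = 0.0586 to 0.0728), and Ssr3 without fibrosis library 2, 3, 4 or 5 or control library 1, 2, 3, 4 or 5 (log2 fold changes 0.18 to 0.22, adjusted p = 0.0531 to 0.111). Subunits of the Sec61 channel were not called. The channel gene Sec61a1 stood at 147 to 202 CPM in fibrosis and 174 to 195 CPM in control (-0.10 ± 0.10, adjusted p = 0.464). The small subunit gene Sec61g had 44.0, 41.5, 39.3, 78.7 and 80.2 CPM in fibrosis libraries 1 to 5, against 50.2, 45.2, 39.8, 46.7 and 45.4 CPM in control libraries 1 to 5, so fibrosis libraries 4 and 5 were far above all others while fibrosis libraries 1 to 3 lay within or just below the control range; its log2 fold change was 0.32 ± 0.20, adjusted p = 0.243. Sec61b, the other small subunit, stood at 68.0 to 116 CPM in fibrosis and 68.2 to 86.4 CPM in control, with fibrosis libraries 4 and 5 above all others (0.17 ± 0.14, adjusted p = 0.346).

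None of the 4 signal peptidase genes was called by edgeR, DESeq2 or voom, and 1, Sec11c, had an unadjusted p under 0.05 (higher). Sec11c, a catalytic subunit, stood closest to the threshold among them, with 100.1, 100.1, 117, 139 and 141 CPM in fibrosis libraries 1 to 5, against 96.4, 90.5, 102, 100.1 and 104 CPM in control libraries 1 to 5. Fibrosis libraries 4 and 5 were again the highest, and the log2 fold change was 0.28 ± 0.11, adjusted p = 0.0626; it was called without fibrosis library 1 or 2 (log2 fold changes 0.33 to 0.34, adjusted p = 0.0264 to 0.0302), and stood at 0.11, adjusted p = 0.313 without libraries 4 and 5. The accessory subunit Spcs1 had 53.8, 52.2, 51.0, 90.4 and 87.5 CPM in fibrosis libraries 1 to 5, against 66.2, 62.0, 53.0, 64.4 and 60.6 CPM in control libraries 1 to 5. Its log2 fold change of 0.13 ± 0.17, adjusted p = 0.589 became -0.22, adjusted p = 0.0628 without fibrosis libraries 4 and 5, a change of sign. The other accessory subunits, Spcs2 and Spcs3, had log2 fold changes of -0.019 ± 0.10 and 0.091 ± 0.071 (adjusted p = 0.903 and 0.342).

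Among the 8 chaperones and cochaperones, 1 was called higher (12.5%, against 18.6% of all tested genes) and 1 lower (12.5%, against 17.2%). Both are J-domain partners of BiP, as is Dnajb9, which was not called. Hspa5, the gene of BiP itself, had 446, 493, 352, 391 and 421 CPM in fibrosis libraries 1 to 5, against 445, 391, 458, 402 and 434 CPM in control libraries 1 to 5. The groups covered the same range, at 421 ± 53.6 CPM in fibrosis and 426 ± 28.4 CPM in control (n = 5 each, SD). The log2 fold change was -0.018 ± 0.10, adjusted p = 0.909, with a 95% interval of -0.23 to 0.20. Dnajc3, also called p58IPK, which binds unfolded proteins and inhibits PERK, had 77.3, 94.7, 78.3, 67.0 and 87.5 CPM in fibrosis libraries 1 to 5, against 67.4, 63.4, 73.4, 57.4 and 59.2 CPM in control libraries 1 to 5 (chr14:118937976-118981697, plus strand). Fibrosis library 4 lay within the control range and the other fibrosis libraries above it, with a log2 fold change of 0.34 ± 0.10, adjusted p = 0.0229. The call was lost without fibrosis library 2 or 5 or control library 2, 4 or 5 (log2 fold changes 0.27 to 0.33, adjusted p = 0.0507 to 0.0652), and it held without fibrosis libraries 4 and 5 (0.39, adjusted p = 0.00889).

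Dnajb11, also called ERdj3, a J-domain cochaperone known from complexes with unassembled immunoglobulin chains, had 112, 114, 96.1, 86.9 and 90.4 CPM in fibrosis libraries 1 to 5, against 126, 118, 126, 122 and 132 CPM in control libraries 1 to 5 (chr16:22857845-22879634, plus strand). Every fibrosis library was below every control library, and the log2 fold change was -0.32 ± 0.091, adjusted p = 0.0141. Fibrosis libraries 4 and 5 were the lowest, and without them the value was -0.21, adjusted p = 0.0506. An annotated antisense gene overlaps Dnajb11 and held 8 counts over all libraries, against 18933 for Dnajb11. The Hsp90 chaperone Hsp90b1, also called GRP94, was not called, at 191 to 282 CPM in fibrosis and 178 to 236 CPM in control (0.16 ± 0.12, adjusted p = 0.332). Hyou1, a nucleotide exchange factor for BiP, had 194, 205, 130.0, 109 and 108 CPM in fibrosis libraries 1 to 5, against 198, 190.0, 180.2, 177 and 175 CPM in control libraries 1 to 5. Fibrosis libraries 1 and 2 lay within or just above the control range and 3 to 5 below it, and the log2 fold change was -0.30 ± 0.17, adjusted p = 0.192; it was called without fibrosis library 2 (log2 fold change -0.44, adjusted p = 0.0434), and stood at -0.054, adjusted p = 0.765 without libraries 4 and 5. Dnajb9, also called ERdj4, a cochaperone that represses IRE1, had 18.2 to 30.8 CPM in fibrosis and 16.3 to 19.9 CPM in control (0.33 ± 0.14, adjusted p = 0.0775). It was called without fibrosis library 1 or 3 (log2 fold changes 0.38 in each, adjusted p = 0.0340 to 0.0489), and stood at 0.17, adjusted p = 0.297 without libraries 4 and 5. Sdf2l1, a partner of Dnajb11, and Manf, a secreted stress-induced factor, had log2 fold changes of -0.12 ± 0.15 and -0.032 ± 0.10 (adjusted p = 0.572 and 0.841). Manf overlaps Rbm15b, which had 19832 counts beside its own 16243, so reads of the pair may have been shared.

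**Figure D3:**
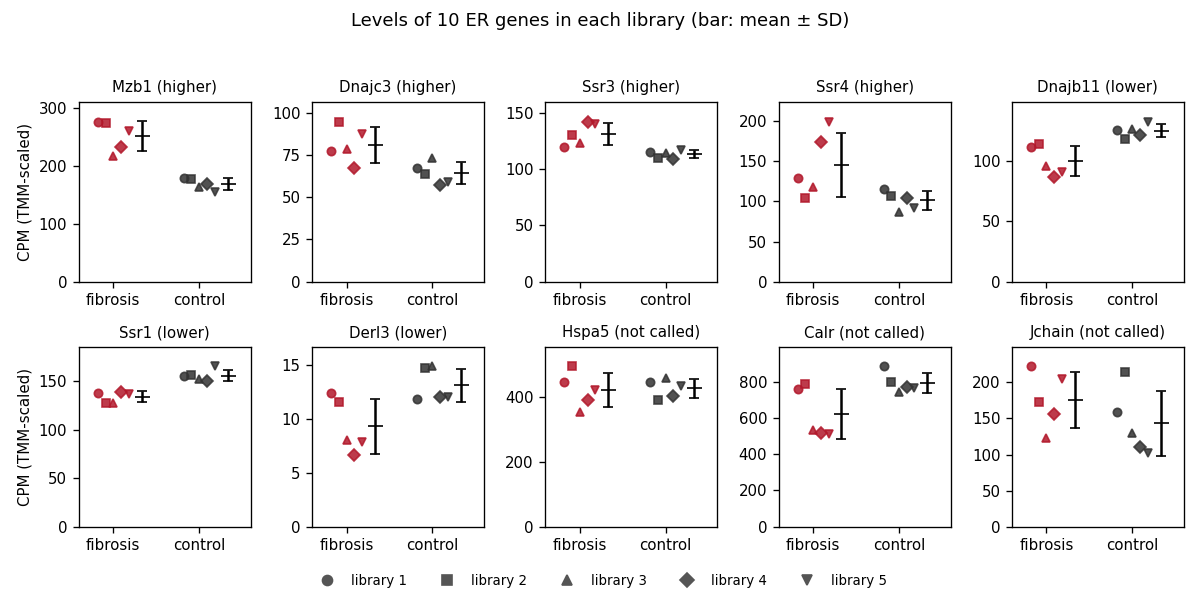
Level in CPM of the 7 called ER genes and of Hspa5, Calr and Jchain in each library, fibrosis at the left and control at the right of each panel, with mean ± SD beside the points (n = 5 each). The fibrosis and control points do not overlap for Mzb1, Ssr3, Dnajb11 and Ssr1, and they cover the same range for Hspa5.

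Neither of the 2 lectin chaperones was called by edgeR. Calreticulin (Calr) had an unadjusted p under 0.05 and was the 1 gene of the pair that DESeq2 called lower, and voom called 0. Calr had 762, 787, 534, 516 and 512 CPM in fibrosis libraries 1 to 5, against 885, 799.8, 743, 774 and 766 CPM in control libraries 1 to 5. Fibrosis libraries 1 and 2 fell within the control range, libraries 3 to 5 lay below it, and the log2 fold change was -0.35 ± 0.14, adjusted p = 0.0598. This was the member closest to the threshold from outside. It was called without fibrosis library 1 or 2 (log2 fold changes -0.45 to -0.44, adjusted p = 0.0174 to 0.0234), and stood at -0.18, adjusted p = 0.239 without libraries 4 and 5. The members just inside the threshold were Ssr3 and Derl3 (adjusted p = 0.0455 and 0.0429). Calnexin (Canx), the membrane-bound relative of calreticulin, had 220.0 to 289.6 CPM in fibrosis and 250.4 to 288 CPM in control (-0.16 ± 0.094, adjusted p = 0.209). The summed level of the pair was 982, 1077, 765, 773 and 738 CPM in fibrosis libraries 1 to 5, against 1168, 1050.2, 1026, 1034 and 1053 CPM in control libraries 1 to 5.

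None of the 6 disulfide and proline folding genes was called by edgeR or DESeq2. Pdia4 had an unadjusted p under 0.05 and was the 1 gene that voom called, as higher. Pdia4, a protein disulfide isomerase also called ERp72, had 376, 399.6, 279, 255 and 265 CPM in fibrosis libraries 1 to 5, against 279.7, 254, 268, 237 and 223 CPM in control libraries 1 to 5. Fibrosis libraries 1 and 2 were the highest of all, libraries 3 to 5 lay in the control range, and the log2 fold change was 0.32 ± 0.13, adjusted p = 0.0791. Without fibrosis libraries 4 and 5 it was called (0.49, adjusted p = 0.00555), as it was without fibrosis library 4 (log2 fold change 0.39, adjusted p = 0.0348). Pdia3, the isomerase that works with the lectins, had 262 to 367 CPM in fibrosis and 311 to 353 CPM in control (-0.047 ± 0.097, adjusted p = 0.742). Pdia6 and Txndc5, also disulfide isomerases, and Creld2, a stress-induced ER protein, had log2 fold changes of -0.13 ± 0.099, -0.046 ± 0.093 and -0.12 ± 0.13 (adjusted p = 0.336, 0.738 and 0.527). Fkbp11, a prolyl isomerase known from secretory cells, had 3.71 to 5.68 CPM in fibrosis and 3.45 to 4.54 CPM in control (0.26 ± 0.17, adjusted p = 0.269).

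Of the 5 genes of ER-associated degradation, 1, Derl3, was called lower (20%, against 17.2% of all tested genes). Derl3, a derlin induced by the unfolded protein response, had 12.4, 11.6, 8.02, 6.58 and 7.81 CPM in fibrosis libraries 1 to 5, against 11.9, 14.7, 14.8, 12.0 and 12.0 CPM in control libraries 1 to 5 (chr10:75893413-75895941, plus strand). Fibrosis library 1 lay in the control range and libraries 2 to 5 below it, library 2 only just, with a log2 fold change of -0.49 ± 0.18, adjusted p = 0.0429. The call was lost without fibrosis library 3, 4 or 5 or control library 1, 2, 3, 4 or 5 (log2 fold changes -0.53 to -0.39, adjusted p = 0.0573 to 0.0997), and without fibrosis libraries 4 and 5 the value was -0.29, adjusted p = 0.185. Derl3 also lost its call with voom (log2 fold change -0.37, adjusted p = 0.0863). The other derlins, Derl1 and Derl2, had log2 fold changes of -0.059 ± 0.072 and 0.15 ± 0.079 (adjusted p = 0.562 and 0.168). Herpud1, a scaffold of the degradation complex, stood at 159 to 225 CPM in fibrosis and 161 to 183 CPM in control (0.12 ± 0.10, adjusted p = 0.395). Edem1, which marks misfolded glycoproteins for degradation, stood at 149 to 194 CPM in fibrosis and 148 to 189.8 CPM in control (0.095 ± 0.097, adjusted p = 0.474). The sensor Atf6 had 83.6, 92.7, 102, 67.9 and 83.9 CPM in fibrosis libraries 1 to 5, against 74.1, 73.5, 82.6, 63.4 and 70.5 CPM in control libraries 1 to 5. The groups overlapped, and the log2 fold change was 0.24 ± 0.11, adjusted p = 0.102. Atf6 was called without fibrosis library 4 (log2 fold change 0.31, adjusted p = 0.0215) and without fibrosis libraries 4 and 5 (0.36, adjusted p = 0.0106). It was also called with voom (0.30, adjusted p = 0.0224) and the replicate block (0.23, adjusted p = 0.0390).

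The member that rose most was a B lineage chaperone. Mzb1, the marginal zone B and B1 cell protein, also called pERp1, is an ER protein that helps the assembly of IgM. It had 277, 274, 218, 233 and 260.2 CPM in fibrosis libraries 1 to 5, against 179, 178, 164, 169.8 and 154 CPM in control libraries 1 to 5 (chr18:35647266-35649367, minus strand). The lowest fibrosis library stood above the highest control library, and the means were 252 ± 25.8 CPM in fibrosis and 169 ± 10.2 CPM in control (n = 5 each, SD). The log2 fold change was 0.58 ± 0.090, adjusted p = 0.000353, and it was 0.61, adjusted p = 0.000295 without fibrosis libraries 4 and 5. In the same libraries the summed B cell markers were 10085, 10635, 10028, 7553 and 7929 CPM in fibrosis libraries 1 to 5, against 7099, 7102, 8121, 7475 and 7325 CPM in control libraries 1 to 5. Of these 11 markers, 4 were called higher by edgeR and 10 by voom, and all 11 had a log2 fold change above 0 (median 0.27). The part of the B cell markers in the rise of Mzb1 was not tested. Mzb1 was the ER gene with the smallest p and kept its call with each library left out. By deposited FPKM, a level per length, it was the highest of the 37 genes in fibrosis (275 ± 31.1 FPKM in fibrosis and 186 ± 11.8 FPKM in control), followed by Calr (214 ± 52.5 FPKM in fibrosis and 275 ± 20.4 FPKM in control). The ranges of mean ± SD of these 2 genes overlapped in fibrosis, and in control Calr stood above Mzb1. Next came Pdia4, at 129.8 ± 30.5 FPKM in fibrosis and 105 ± 9.35 FPKM in control, then Pdia3, at 100.5 ± 12.2 FPKM in fibrosis and 105 ± 5.56 FPKM in control, and Hspa5, at 98.0 ± 13.5 FPKM in fibrosis and 101 ± 6.35 FPKM in control. In fibrosis the mean ± SD of Pdia4, Pdia3 and Hspa5 overlapped, and those of Calr and Pdia4 did not. The lowest was Fkbp11, at 1.65 ± 0.348 FPKM in fibrosis and 1.40 ± 0.168 FPKM in control.

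The other 3 genes tied to antibody secretion, Jchain, Sdc1 and Ell2, were not called. The joining chain gene Jchain, which links IgM and IgA polymers, had 222, 173, 123, 156 and 204 CPM in fibrosis libraries 1 to 5, against 159, 214, 130.4, 110.2 and 102 CPM in control libraries 1 to 5. The libraries of both groups spread widely and overlapped, with a log2 fold change of 0.30 ± 0.21, adjusted p = 0.286. Sdc1 (CD138), a surface marker of plasma cells, had 23.1, 14.8, 12.1, 13.0 and 11.1 CPM in fibrosis libraries 1 to 5, against 13.9, 21.9, 18.7, 19.7 and 21.7 CPM in control libraries 1 to 5. Fibrosis library 1 was the highest of all 10, library 2 lay in the control range and libraries 3 to 5 below it, with a log2 fold change of -0.37 ± 0.19, adjusted p = 0.155. Sdc1 was called without fibrosis library 1 (log2 fold change -0.59, adjusted p = 0.00818), and stood at -0.19, adjusted p = 0.502 without libraries 4 and 5. Ell2, an elongation factor that promotes the secretory form of heavy chain transcripts, had 23.9, 28.4, 36.7, 34.5 and 25.4 CPM in fibrosis libraries 1 to 5, against 35.6, 34.9, 36.9, 31.3 and 37.4 CPM in control libraries 1 to 5 (-0.24 ± 0.12, adjusted p = 0.138). Fibrosis libraries 1, 2 and 5 lay below the control range and 3 and 4 within it, and Ell2 was called without fibrosis library 3 (log2 fold change -0.35, adjusted p = 0.0341).

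Fibrosis libraries 4 and 5 differed from 1 to 3 for some members, at about the rate of the whole table. Both lay above fibrosis libraries 1 to 3 for 8 genes, Sec61b, Sec61g, Ssr3, Ssr4, Sec11c, Spcs1, Spcs3 and Derl2 (21.6%, where 24.4% of all tested genes did so). Of those 8, 7 belong to the translocon and signal peptidase, and their summed levels show the same: the translocon stood at 835, 783, 729, 914 and 922 CPM in fibrosis libraries 1 to 5, against 851, 837, 745, 805 and 802 CPM in control libraries 1 to 5, and the signal peptidase at 377, 371, 357, 473 and 455 CPM in fibrosis libraries 1 to 5, against 387, 364, 366, 389 and 376 CPM in control libraries 1 to 5. Both lay below fibrosis libraries 1 to 3 for 7 genes, Hyou1, Dnajb11, Calr, Pdia4, Txndc5, Sec61a1 and Derl3, which is 18.9%, where 19.0% of all tested genes did so. The order was mixed for the other 22. The median exon length in the table was 3090 bases for the genes where they lay above, 3236 where they lay below and 3634.5 for the rest. The share of ribosomal protein genes was also highest in these libraries, and its part in the order was not tested.

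Related genes outside the 37 were then counted from 11 lists. Not all are ER genes: the lists include ATF4 targets, cytosolic and mitochondrial chaperones, plasma cell program genes and immunoglobulin constant genes. The immunoglobulin constant genes had 7 called higher and 1 lower of 12. Of 180 tested genes in these lists, 28 were called higher and 33 lower, with a median log2 fold change of -0.041. In both directions this is close to the share among all tested genes (15.6% higher and 18.3% lower, against 18.6% and 17.2%). No difference between lists was tested, and each count stands beside the 18.6% higher and 17.2% lower of all tested genes. Folding enzymes outside the 37 had 6 higher (26.1%) and none lower of 23 by edgeR (1 lower at an unadjusted p under 0.05, 0 lower by DESeq2 and 1 by voom). Their median log2 fold change was -0.042, with 11 values above 0 and 12 below. Pdia5, a disulfide isomerase, averaged 17.2 ± 2.96 CPM in fibrosis and 7.33 ± 0.797 CPM in control (1.23 ± 0.14, adjusted p = 5.59e-05). Tmx3, a membrane-bound thioredoxin, averaged 57.4 against 37.7 CPM (0.61 ± 0.11, adjusted p = 0.000715), in fibrosis and control in that order, and Ero1lb, an oxidase that recharges disulfide isomerases, averaged 131 against 92.3 CPM (0.50 ± 0.12, adjusted p = 0.00431). Erp44, which retains unassembled subunits, had a log2 fold change of 0.34 ± 0.082, adjusted p = 0.00647.

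In N-glycosylation, 8 genes were called lower and the others were not called. The oligosaccharyltransferase, which attaches the glycan, had none higher and 4 lower of 12 (33.3%), and glycan trimming and quality control had none higher and 4 lower of 9 (44.4%), by edgeR, where 17.2% of all tested genes were called lower. The uncalled genes went both ways in the transferase list, whose median log2 fold change was 0.025 with 7 values above 0 and 5 below. In the glycan quality control list the median was -0.20, with 1 above and 8 below. At an unadjusted p under 0.05 and by DESeq2 neither list had a gene higher (0 each), and voom called 1 higher in the transferase list and 0 in the other. Rpn1, a subunit of the transferase, averaged 195 ± 12.9 CPM in fibrosis and 240.0 ± 10.6 CPM in control (-0.30 ± 0.078, adjusted p = 0.00937). Rpn2, Ddost and Stt3a, further subunits, had log2 fold changes of -0.36 ± 0.11, -0.37 ± 0.12 and -0.30 ± 0.095 (adjusted p = 0.0216, 0.0244 and 0.0256). Mogs, the glucosidase that starts trimming, averaged 118 ± 18.4 CPM in fibrosis and 168 ± 9.19 CPM in control (-0.51 ± 0.11, adjusted p = 0.00246), and Lman1, a cargo lectin for export, averaged 41.1 ± 3.64 CPM in fibrosis and 57.6 ± 2.38 CPM in control (-0.49 ± 0.082, adjusted p = 0.000576). Prkcsh and Ganab, the subunits of the second glucosidase, had log2 fold changes of -0.38 ± 0.12 and -0.35 ± 0.11 (adjusted p = 0.0223 and 0.0261). Without fibrosis libraries 4 and 5, Rpn1, Mogs and Lman1 kept their calls, and Rpn2, Ddost, Stt3a, Prkcsh and Ganab had values of -0.27, -0.27, -0.19, -0.26 and -0.18 with adjusted p from 0.0752 to 0.0970. Each of these 5 also lost its call with some single libraries left out. Rpn2 did so without fibrosis library 3 or 5 or control library 1 or 2 (log2 fold changes -0.35 to -0.31, adjusted p = 0.0511 to 0.0556), Ddost without fibrosis library 3 or 5 or control library 1 or 2 (log2 fold changes -0.35 to -0.32, adjusted p = 0.0539 to 0.0621) and Stt3a without fibrosis library 4 or 5 or control library 1, 2 or 5 (log2 fold changes -0.30 to -0.25, adjusted p = 0.0504 to 0.0691). Prkcsh did so without fibrosis library 3 or 5 or control library 1 or 5 (log2 fold changes -0.36 to -0.31, adjusted p = 0.0502 to 0.0573) and Ganab without fibrosis library 5 or control library 1, 2 or 5 (log2 fold changes -0.35 to -0.29, adjusted p = 0.0532 to 0.0602).

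**Figure D4:**
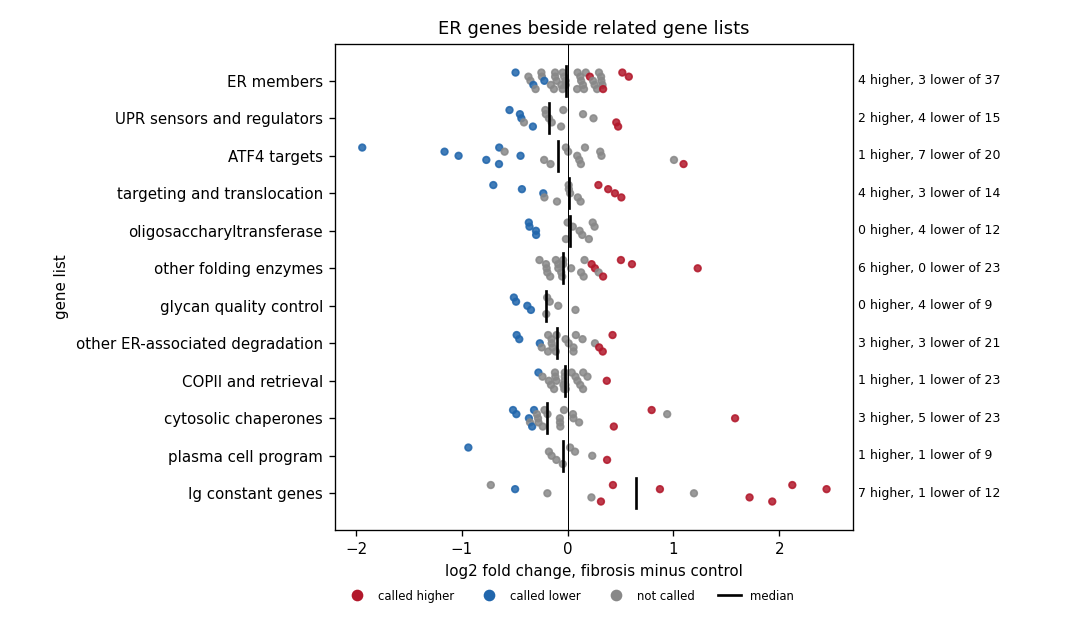
Log2 fold change, fibrosis minus control, of the tested genes of the ER group and of 11 related lists, 1 point per gene coloured by call, with the median as a bar and the counts at the right. The ER group lies around 0, the 4 called genes of the oligosaccharyltransferase and the 4 of glycan quality control are all lower, and the constant genes of the immunoglobulins (Ig) reach the highest values.

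Regulators of the unfolded protein response had 2 genes higher (13.3%) and 4 lower (26.7%) of 15, beside 18.6% and 17.2% of all tested genes. Ern1, the gene of the sensor IRE1, averaged 27.7 ± 4.16 CPM in fibrosis and 40.6 ± 3.57 CPM in control (-0.55 ± 0.11, adjusted p = 0.00196), and Ppp1r15b, a phosphatase subunit that counters the translation block of the stress response, averaged 203 ± 12.5 CPM in fibrosis and 277 ± 27.5 CPM in control (-0.45 ± 0.088, adjusted p = 0.00163). Rtcb, the ligase that joins the Xbp1 transcript after IRE1 has cut it, averaged 296 ± 15.4 CPM in fibrosis and 215 ± 4.30 CPM in control (0.46 ± 0.073, adjusted p = 0.000408). Creb3, an ER-bound transcription factor, averaged 48.3 ± 4.99 CPM in fibrosis and 34.7 ± 2.60 CPM in control (0.48 ± 0.093, adjusted p = 0.00155). Xbp1 had 185, 175, 115, 153 and 158 CPM in fibrosis libraries 1 to 5, against 196, 187, 161, 192 and 154 CPM in control libraries 1 to 5 (-0.18 ± 0.12, adjusted p = 0.293); the count table does not separate its spliced form. Targets of ATF4, the transcription factor downstream of PERK and of amino acid shortage, had 1 higher (5.00%) and 7 lower (35.0%) of 20. The 4 with the smallest p were all lower: Aldh18a1, of proline synthesis, at 59.4 against 121 CPM (-1.03 ± 0.10, adjusted p = 2.60e-05), in fibrosis and control in that order, Psat1, of serine synthesis, at 44.9 against 70.3 CPM (-0.65 ± 0.084, adjusted p = 0.000105), Slc7a5, an amino acid transporter, at 60.5 against 136 CPM (-1.16 ± 0.16, adjusted p = 0.000140), and Pck2, a mitochondrial carboxykinase, at 115 against 196 CPM (-0.77 ± 0.13, adjusted p = 0.000484). Beside these values stand the proliferation markers, 22 of 22 lower, whose part was not tested.

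The other lists were mixed. Targeting and translocation genes outside the 37 had 4 higher and 3 lower of 14. Sec62 and Sec63, which assist the Sec61 channel, had log2 fold changes of 0.45 ± 0.093 and 0.38 ± 0.11 (adjusted p = 0.00234 and 0.0124). Sec61a2, the second form of the channel, averaged 4.40 against 7.18 CPM in fibrosis and control (-0.70 ± 0.21, adjusted p = 0.0187). Srp9, of the signal recognition particle, had a log2 fold change of 0.51 ± 0.16, adjusted p = 0.0279, and 0.17, adjusted p = 0.117 without fibrosis libraries 4 and 5; with single libraries left out it lost its call without fibrosis library 4 or 5 or control library 1, 2, 3 or 5 (log2 fold changes 0.38 to 0.52, adjusted p = 0.0529 to 0.0661). Other genes of ER-associated degradation had 3 higher and 3 lower of 21. Among them, Nploc4 and Vcp, parts of the complex that pulls proteins out of the membrane, had log2 fold changes of -0.46 ± 0.10 and -0.26 ± 0.077 (adjusted p = 0.00367 and 0.0174), and Selenos and Fam8a1, of the ligase complex, had 0.30 ± 0.087 and 0.33 ± 0.097 (adjusted p = 0.0165 and 0.0166). Vcp lost its call without control library 1 (log2 fold change -0.25, adjusted p = 0.0509), and Fam8a1 without control library 1 (log2 fold change 0.29, adjusted p = 0.0527). COPII export and retrieval had 1 higher, Mia3, a loader of large cargo (0.37 ± 0.12, adjusted p = 0.0296), and 1 lower, Sec13, a coat protein (-0.28 ± 0.085, adjusted p = 0.0224), of 23. Sec13 lost its call without control library 1 or 2 (log2 fold changes -0.26 to -0.24, adjusted p = 0.0575 to 0.0672) and Mia3 without fibrosis library 2 or 3 or control library 1, 2, 4 or 5 (log2 fold changes 0.29 to 0.36, adjusted p = 0.0632 to 0.0972). Cytosolic and mitochondrial chaperones had 3 higher and 5 lower of 23, with Tcp1 and Hspd1, of the chaperonins, at -0.33 ± 0.079 and -0.48 ± 0.12 (adjusted p = 0.00498 and 0.00676) and Dnaja1, a cytosolic J-domain cochaperone, at 0.79 ± 0.21, adjusted p = 0.0111. Hspa1a, an inducible Hsp70, was also higher, at 2.69 against 0.890 CPM in fibrosis and control (1.58 ± 0.43, adjusted p = 0.0114). The called genes of these and the preceding lists that lie beyond the 4 smallest p, named after their values were seen, were as follows. Higher were Ppib and Cnpy3 of folding, Ddit4 of the ATF4 targets, Srp14 of targeting, Erlec1 of degradation and the cytosolic Chordc1. Lower were Atf4 and Ppp1r15a of the stress response, Shmt2, Asns and Mthfd2 of the ATF4 targets, Tram2 and Srp68 of targeting, Yod1 of degradation, and the cytosolic Hspa4l, Cct3 and Cct7.

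The immunoglobulin genes, whose products pass through this apparatus, were counted beside it. Of 12 tested constant genes, 7 were called higher (58.3%) and 1 lower (8.33%). The 7 were Ighd, Igha, Ighg3, Ighg2b, Ighg2c, Iglc3 and Igkc. Over all 12 the log2 fold changes ran from -0.73 to 2.45 with a median of 0.65, 9 above 0 and 3 below. The lowest was of a gene that was not called. Ighd, of IgD, averaged 1566 ± 259.6 CPM in fibrosis and 855 ± 97.5 CPM in control (0.87 ± 0.13, adjusted p = 0.000214), Igha 360.5 ± 171 CPM in fibrosis and 109 ± 45.9 CPM in control (1.72 ± 0.38, adjusted p = 0.00445) and Ighg3 143 ± 130.5 CPM in fibrosis and 26.2 ± 4.46 CPM in control (2.45 ± 0.55, adjusted p = 0.00569). Without fibrosis library 1 the log2 fold change of Ighg3 was 1.80, adjusted p = 0.00386. Iglc1, a lambda light chain gene, averaged 181 ± 11.3 CPM in fibrosis and 255 ± 16.8 CPM in control (-0.50 ± 0.081, adjusted p = 0.000481). The summed level of Igha, Ighg1, Ighg2b, Ighg2c and Ighg3, a set chosen after their values were seen, was 1701, 1091, 509, 538 and 571 CPM in fibrosis libraries 1 to 5, against 306, 349, 171, 187 and 173 CPM in control libraries 1 to 5. Every fibrosis library lay above every control library, and the ratio of the means was 3.72. The summed level of all 12 constant genes was 8918 to 14731 CPM in fibrosis and 9365 to 10729.5 CPM in control. For that sum the groups overlapped, and the ratio of the means was 1.14. The summed level of the 37 ER genes had a ratio of 0.999. Genes of the plasma cell program had 1 higher of 9 tested, Slamf7, a surface receptor of plasma cells (0.37 ± 0.083, adjusted p = 0.00341), and 1 lower, Cd93 (-0.94 ± 0.13, adjusted p = 0.000167), and Prdm1, the gene of the plasma cell regulator Blimp-1, averaged 6.18 ± 0.221 CPM in fibrosis and 6.08 ± 0.716 CPM in control (0.024 ± 0.13, adjusted p = 0.908).

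**Figure D5:**
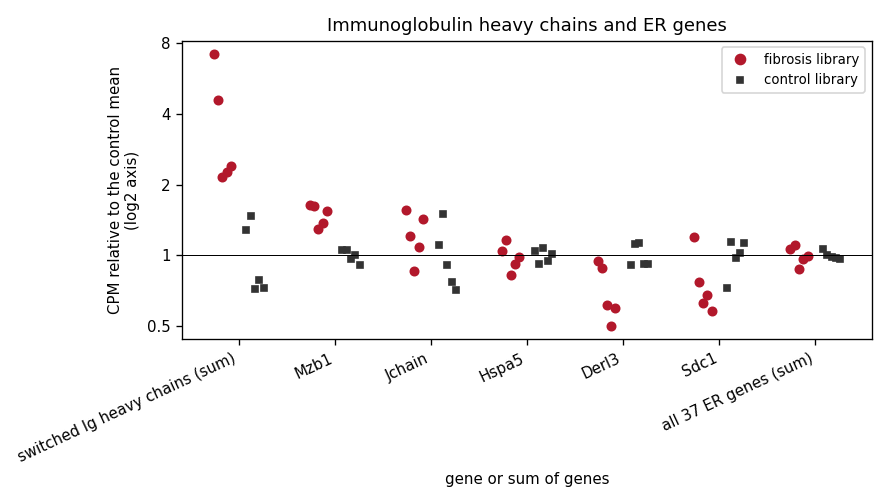
Level in each library relative to the mean of the control libraries (log2 axis) for the sum of the 5 switched heavy chain constant genes, for 5 ER genes and for the sum of the 37 ER genes, with fibrosis libraries as circles at the left and control libraries as squares at the right of each position. The heavy chain sums, 509 to 1701 CPM in fibrosis and 171 to 349 CPM in control, do not overlap, while the ER sums of both groups lie around 1.

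Across the genome, 35 genes had the ER stress element in their RefSeq promoter, of which 32 were in the count table and 17 were tested. In fibrosis 2 of the 17 were called higher (11.8%, against 18.6% of all tested genes), Dnajc3 and Ero1lb (listed by RefSeq as Ero1b). Another 2 were called lower (11.8%, against 17.2%), Derl3 and the deadenylase subunit gene Pan2, with a median log2 fold change of -0.11. Among the 8 members with the element the median was -0.12, with 1 higher, 1 lower and 6 not called. Of the 6 called members with a RefSeq promoter, 2 had the element.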

How the data were processed

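Per the labels' protocols, mRNA was purified with poly-T beads, fragmented and reverse transcribed with random hexamers. The authors deposited whole-number read counts per gene, with no normalization, and FPKM, which divides counts by exon length and library size. The submitters' processing notes name the build GRCm38 (mm10). Aligner, counter and strand setting: not given in the sources used here. Overlapping genes may share reads.

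edgeR 4.0.16 in R 4.3.3 kept 14283 genes with filterByExpr, which held 99.9% of counts, scaled libraries by TMM and compared fibrosis with control by the quasi-likelihood test with robust dispersion and Benjamini-Hochberg adjustment. Standard errors were obtained by dividing the size of the log2 fold change by the root of the F statistic. The common biological coefficient of variation was 0.183. Across genes, log2 CPM of replicates had a Pearson's r of 0.970 to 0.990 in fibrosis and 0.990 to 0.994 in control, and no pair of libraries agreed within sampling noise. The code was tested on simulated counts.

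Alternatives were RLE and library size scaling, TMM computed with immunoglobulin and haemoglobin genes left out, testing without a filter or with a stricter one (1 CPM in 5 or more libraries), DESeq2 1.42.0, limma 3.58.1 voom with quality weights, limma on log2 of FPKM plus 1 or 0.1, an adjusted p under 0.01, at least 1.5-fold, a block for the replicate number, and fits with libraries left out. The members and lists were chosen with earlier results of these data known. All members are named; of each related list the text names up to 4 genes with the smallest p, of the marker lists mainly called genes, and the members nearest the threshold.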

Additional observations from a re-analysis of the deposited data

Results flagged for a closer look

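Edem1, of ER-associated degradation, was lower in fibrosis library 4 than in the other fibrosis libraries by more than Dixon's 95% limit for 5 samples. It had 149 CPM there, and the nearest other fibrosis library had 181 CPM, a gap that makes up 0.715 of the range of the group, against a limit of 0.71. This was 1 of 74 combinations of gene and group examined, and chance gives such a value in about 1 in 20.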

How the results depend on the processing

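The count of ER genes called higher (4) was 1 with scaling by library size, 2 with no filter, 1 at an adjusted p under 0.01 and 0 at 1.5-fold or more. The count called lower (3) was 6, 5, 0 and 0 in the same order, 5 with the replicate block and 1 without fibrosis libraries 4 and 5. Of all 33548 genes tested with no filter, 6.94% were called higher and 8.04% lower. Those shares were 18.7% and 17.7% with the replicate block, and 18.4% and 18.8% without fibrosis libraries 4 and 5. With single libraries left out, 2052 to 2914 of all tested genes were called higher and 2083 to 2582 lower. Among the ER genes, 1 to 6 were called higher and 1 to 5 lower in those fits. The replicate block gave 6 higher, but no label makes the replicate number a pairing: same-numbered libraries correlated at -0.29 to 0.47 in their deviations, above 0.1 in 3 of 5 pairs, and 2 of 5 fibrosis libraries were closest to their own number. Over all tested genes, 1547 were called higher and 1683 lower at an adjusted p under 0.01, and 1403 higher and 1381 lower at 1.5-fold or more. Under scaling by library size the split over all tested genes was 1777 higher and 3306 lower, instead of 2654 and 2451, and the median of the ER genes was -0.13. In the related lists, 28 higher and 33 lower became 15 and 57 with library size, 15 and 17 at 0.01, and 10 and 8 at 1.5-fold. The cause of these shifts was not tested, except that a stricter threshold calls fewer genes by construction. Log2 fold changes that changed sign were all of genes not called. These were Hspa5 (0.060 with voom, 0.023 without fibrosis libraries 4 and 5, -0.083 to 0.024 with single libraries left out), Txndc5 (0.058 without 4 and 5, -0.11 to 0.012), Spcs1 (-0.10 with voom, -0.22 without 4 and 5, -0.0030 to 0.20), Manf (-0.095 to 0.029) and Spcs2 (-0.076 to 0.044). Without 4 and 5, Sec61a1 was at 0.035, Sec61b at -0.055 and Sec61g at -0.12; with library size, Spcs3 was at -0.017 and Edem1 at -0.010. Of the single-gene results over all alternatives, 746 kept direction and side of the threshold, 57 lost a call, 29 gained one and 19 changed sign. Over the 23 alternatives the adjusted p ran from 6.99e-08 to 0.00192 for Mzb1, 0.00350 to 0.0506 for Dnajb11, 0.00455 to 0.117 for Dnajc3, 0.00292 to 0.119 for Ssr1, 0.0181 to 0.415 for Ssr3, 0.00143 to 0.116 for Ssr4, 0.00811 to 0.185 for Derl3, 0.0147 to 0.239 for Calr and 0.00555 to 0.242 for Pdia4. The summed level of the ER genes moved by less than the spread between fibrosis libraries in every alternative run. All 37 ER genes passed the filter on low counts, and their standard errors ran from 0.071 to 0.21. What limited the comparison was not tested.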
